A study of Mus musculus with 12 samples.

Results

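The lysosome is the acidic compartment in which cells break down proteins, lipids and glycans, and 44 genes for its parts were followed through single-cell RNA sequencing of the stromal vascular fraction (SVF, the non-adipocyte cells of fat) of mouse epididymal (eWAT) and inguinal (iWAT) white adipose tissue. The list is defined by gene name and role, was drawn up with earlier results of these data known, and all 44 were found among the 31053 genes counted. They encode 12 cathepsins, 6 subunits of the membrane-bound V0 part and 8 of the cytosolic V1 part of the vacuolar proton pump (V-ATPase), 2 accessory subunits of the pump, 4 lysosomal membrane proteins, 7 other hydrolases, 2 activators, and the transcription factors Tfeb, Tfec and Mitf.

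For each depot, 6 libraries were analysed, 2 for each of 3 labels, and each label stands for male mice of 12 weeks. WT-Veh were lean C57BL/6J mice given the vehicle methylcellulose, ob/ob-Veh were obese Lepob/Lepob mice, which make no functional leptin, given the same vehicle, and ob/ob-Rosi were Lepob/Lepob mice gavaged morning and evening for 3 days with 30 mg/kg rosiglitazone (Rosi), an agonist of the nuclear receptor PPARγ. No WT mice given Rosi were among the libraries. The Lepob change is germline, so every cell of an ob/ob mouse carries it and the mice differ from WT-Veh in body fat as well as in leptin. The SVF was freed with collagenase and floating adipocytes were taken off, so cells that float with them are not in the libraries. Libraries are named here by their labels and replicate numbers.

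The V-ATPase pumps protons into the lysosome, and at the resulting low pH the cathepsins cut proteins while the other hydrolases trim glycans and lipids with the help of activators such as the saposins made from Psap. Macrophages carry many lysosomes. In adipose tissue, lipid-associated macrophages (LAMs) around dying adipocytes take up lipid and degrade it there, whereas perivascular macrophages (PVMs) lie along vessels. TFEB, TFEC and MITF belong to the MiT/TFE family of transcription factors, which bind E-box letters near the starts of many lysosomal genes.

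To show those letters, the promoter windows of the members, taken from RefSeq on build GRCm38.p6 and reaching from 250 bases before to 50 bases after each start, were searched on both strands for TCACGTGA, which reads the same on either strand. Windows matched 35 of the 44 genes, and Ctsb, Ctse, Ctsh, Atp6v0d2, Atp6v1b2, Atp6v1c1, Atp6v1g1, Atp6v1h and Asah1 had none. The 8 letters were present for 6 of the 35 genes (17.1%), against 304 of all 27025 genes with a window (1.12%). The inner 6 letters CACGTG, which every such match also holds, were present for 14 members (40.0%) and for 8.09% of all genes. The 6 matches are given with 10 bases on each side, the 8 letters in capitals. They share these letters because the letters were searched for, and the rest of the windows was not compared.
Atp6v0d1: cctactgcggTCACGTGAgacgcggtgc
Atp6v0e: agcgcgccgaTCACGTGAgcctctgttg
Atp6v1a: tttttttaaaTCACGTGAtaggcttaac
Ctsa: gagcaaactgTCACGTGAtgcagatgct
Ctsd: cgcccgcgtcTCACGTGAcccgttgagg
Mcoln1: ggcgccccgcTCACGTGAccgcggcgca
These windows lie at chr8:105566051-105566078 on the minus strand for Atp6v0d1, chr17:26676388-26676415 (plus) for Atp6v0e, chr16:44139374-44139401 (minus) for Atp6v1a, chr2:164833750-164833777 (plus) for Ctsa, chr7:142387909-142387936 (minus) for Ctsd and chr8:3500463-3500490 (plus) for Mcoln1. Among the 6 shown, the match lay closest to a start in Atp6v0e and Atp6v0d1, at 2 and -4 bases, and farthest away in Atp6v1a, at -132 bases. Distances are from the RefSeq start of the window. For Atp6v0e, Atp6v1a, Ctsa, Ctsd and Mcoln1 the printed stretch lies inside the gene as the annotation used for positions gives it. Ctsa held 2 copies, of which the first in reading direction is shown. The match is a description of the letters, and binding was not measured.

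After filters on depth and mitochondrial reads, 57613 eWAT and 68482 iWAT cells were kept. Libraries held 20132553 to 92475986 unique molecular identifiers (UMIs, 1 per captured transcript), 6472 to 17500 kept cells and a median of 1132 to 4961 UMIs per kept cell. Pairs of libraries shared 7 to 99 cell barcodes, at most 1.05% of the smaller library. Cells were clustered without any of the members among the variable genes and named from marker lists, so a level in a class is no product of the naming, but differences between classes are given as description. Lep does not check the labels, because the Lepob change alters the protein and leaves a transcript. Its UMIs numbered 4 to 277 in the ob/ob libraries and 33 to 83 in those labelled WT-Veh. No transcript used here checks the ob/ob-Veh labels, so each difference from them is one between libraries as labelled. The iWAT library WT-Veh 1 stood apart, with the lowest depth and 7829 of its cells in 1 cluster that took no class name.

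The share of LAM-like cells moved with the labels and touches each result over all macrophage-like cells. Macrophage-like cells numbered 26359 in eWAT and 19739 in iWAT. Of the eWAT cells, 40.1% and 47.2% were LAM-like in WT-Veh, 1.05% and 2.27% in ob/ob-Veh (29 and 55 cells) and 39.2% and 64.5% in ob/ob-Rosi. In iWAT these shares were 25.2% and 15.3%, 0.64% and 0.24%, and 18.6% and 13.8%. UMIs summed over macrophage-like cells therefore cannot tell fewer cells of a kind from less RNA per cell, and the classes within them are described separately below. The median share of mitochondrial UMIs in eWAT macrophage-like cells moved in part alongside, at 3.35% and 3.66% in WT-Veh, 6.53% and 6.70% in ob/ob-Veh, and 6.42% and 3.70% in ob/ob-Rosi. In those of iWAT it was 8.18% and 3.63%, 11.1% and 9.85%, and 4.60% and 2.27%, with median UMIs per cell of 3044 and 4824, 1693 and 1647, and 4022 and 3004, so that ob/ob-Veh had the highest mitochondrial share and the lowest depth. Over whole eWAT libraries, 11 immediate-early and heat-shock genes that respond to tissue dissociation summed to 5292 and 6631 CPM in WT-Veh, 11784 and 9991 in ob/ob-Veh, and 5228 and 4277 in ob/ob-Rosi, and in iWAT to 5592 and 9929, 12799 and 12318, and 8384 and 8733. Adipocyte genes summed to 36.0 and 80.8 CPM in eWAT ob/ob-Veh, against 5.75 to 12.6 in the other eWAT libraries. In both depots the ob/ob-Veh libraries were highest in the dissociation genes. The part of the LAM-like share, the mitochondrial share, the dissociation genes and adipocyte RNA in each difference was not tested.

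The 44 genes were concentrated in macrophages in both depots. They supplied 3.25% to 4.45% of the UMIs of LAM-like cells in eWAT and 3.43% to 4.08% in iWAT, and 2.13% to 3.06% of those of PVM-like cells in eWAT and 2.13% to 3.07% in iWAT. Proliferating macrophages gave 1.12% to 3.28% in eWAT, lowest in the 1 ob/ob-Veh library that held enough of them, and 1.77% to 2.83% in iWAT. Non-perivascular (NPVM-like) macrophages of eWAT gave 1.55% to 2.60%. Dendritic (DC-like) cells gave 0.926% to 1.38% in eWAT, adipocyte progenitor (APC-like) cells 0.671% to 1.29%, endothelial (EC-like) cells 0.597% to 1.26% and T/NK-like cells 0.655% to 1.34%. The ranges of these last 4 classes overlap one another. Within EC-like, APC-like and T/NK-like cells both ob/ob-Veh libraries lay below all others, at 0.610% and 0.597% in EC-like cells against 1.13% to 1.26%. In iWAT the APC-like, EC-like and T/NK-like cells lay between 0.615% and 1.34%.

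**Figure D1:**
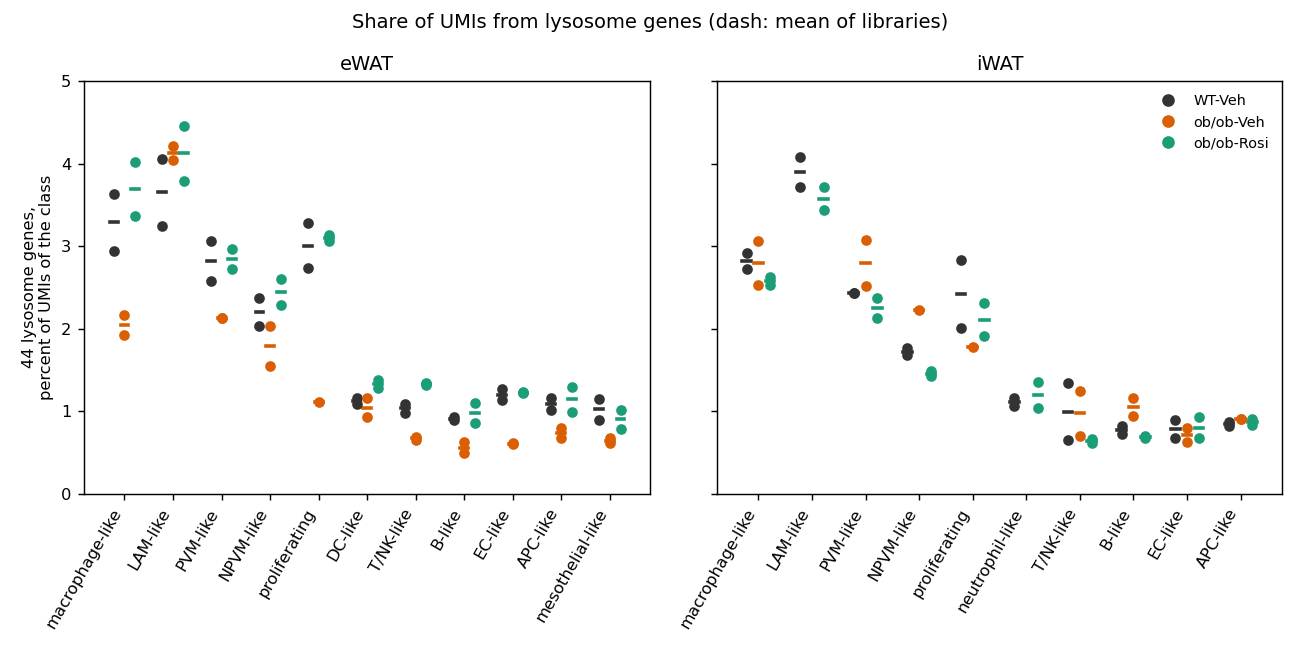
Share of UMIs from the 44 lysosome genes (percent of the UMIs of a class, linear axis) in each library and cell class of eWAT (left) and iWAT (right); points are libraries coloured by label and dashes are means. In eWAT the macrophage-like libraries labelled ob/ob-Veh, at 1.92% and 2.17%, lie below those of the other labels, while in iWAT the 3 labels lie between 2.53% and 3.06%.

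Levels are given as counts per 1000000 UMIs of the class in that library (CPM), and each gene is compared with itself, since counts from the 3-prime end are not set per transcript length. LAM-like cells had the highest mean over libraries for 23 of the 44 members in eWAT and 24 in iWAT, and PVM-like cells for 12 and 11. Only Ctsc in PVM-like cells and Mitf in mast-like cells exceeded the next class at least 2-fold in eWAT, the second from 12 UMIs of 1 library. Ctsc encodes cathepsin C, which activates granule proteases, and its mean CPM was 1087 in eWAT PVM-like cells against 501 in NPVM-like cells, and 1120 against 494 in iWAT.

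In iWAT the genes at least 2-fold above the next class were, in LAM-like cells, Ctsd (mean CPM 4423 against 2033 in proliferating macrophages), Ctsl (3407 against 1485) and Atp6v0d2 (421 against 178). LAM-like cells were enough for a level in 4 iWAT libraries, none of them ob/ob-Veh, while proliferating macrophages had 1 more, from ob/ob-Veh, and over the same 4 libraries the 3 folds were 1.90, 1.89 and 1.89. Ctsd and Ctsl encode the broad proteases cathepsins D and L, and Atp6v0d2 encodes the d2 isoform of a V0 subunit known from osteoclasts and macrophages. Gaa, the acid glucosidase that degrades glycogen, was highest in APC-like cells, at 113 against 49.9 in PVM-like cells. Ctsk, the collagen-cutting cathepsin K, was about as high in APC-like cells of eWAT (330) as in LAM-like cells (361), and the libraries of both classes overlapped. Ctse stood at no more than 1.87 CPM in macrophage-like cells of any library. Atp6v0c, which has near-identical processed copies and so is uncertain, stood between 4.61 and 19.5 CPM there.

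**Figure D2:**
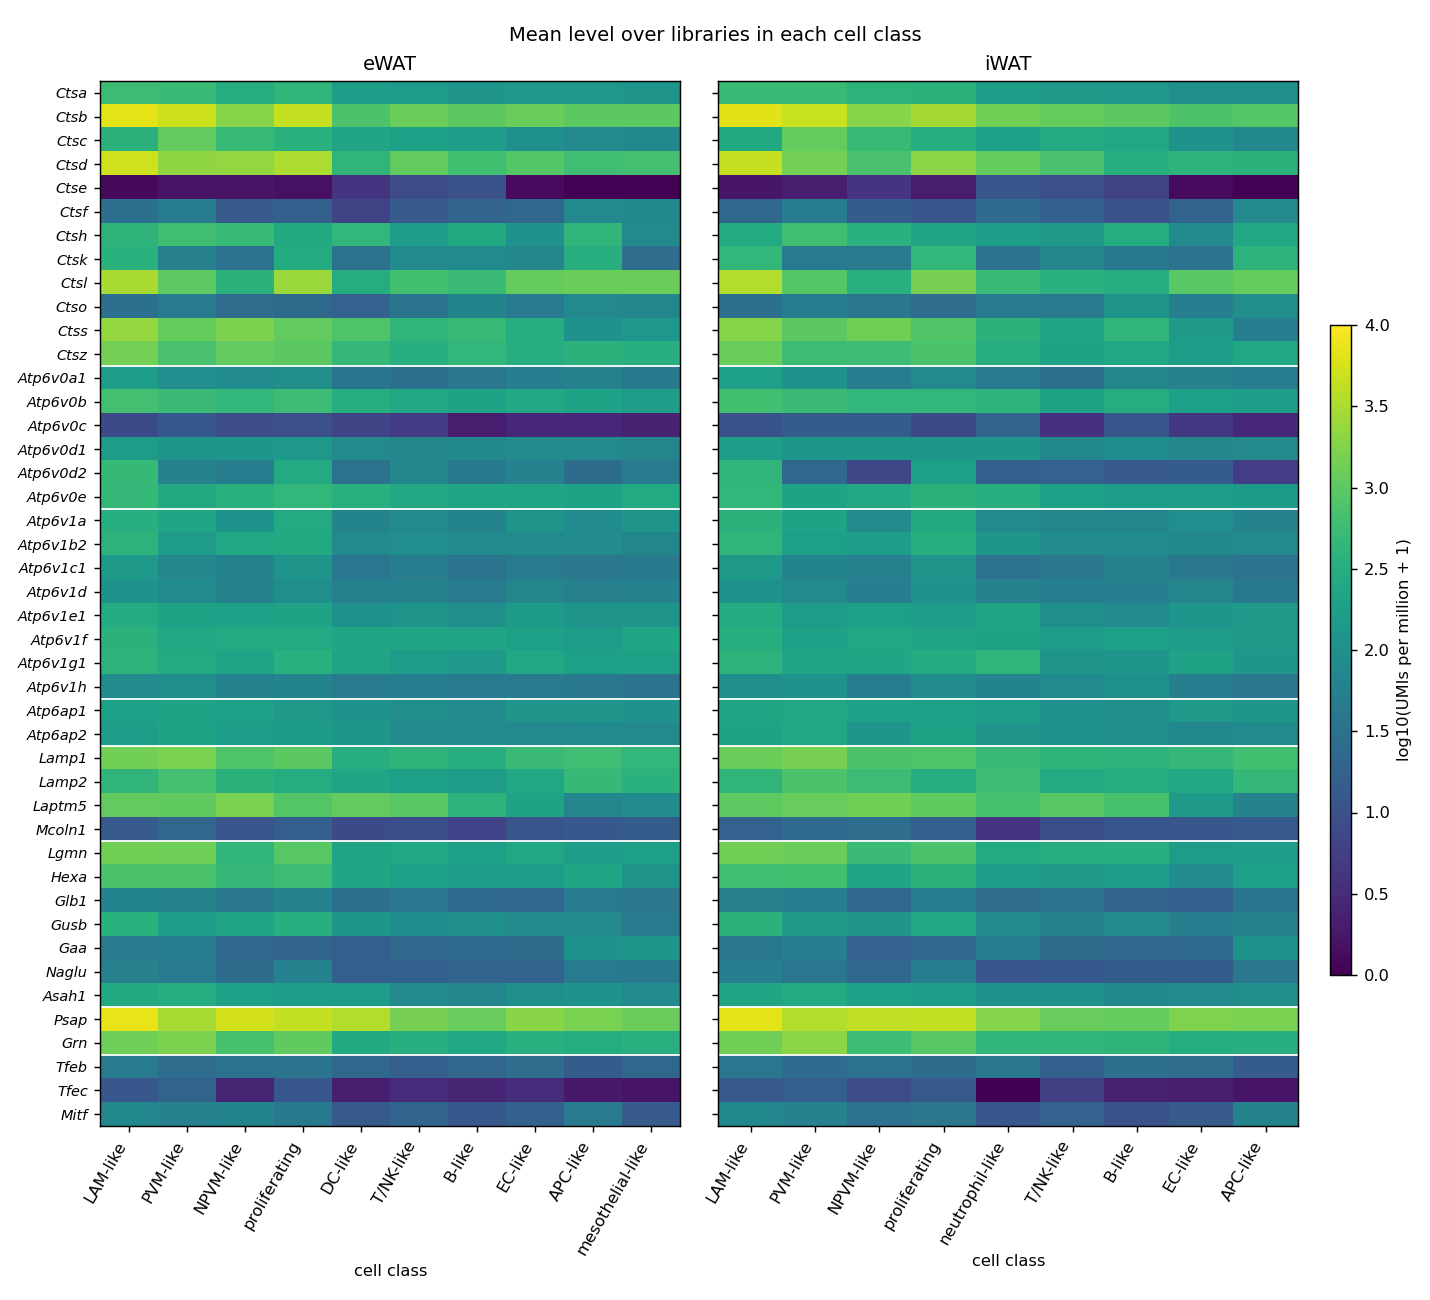
Mean level of each of the 44 genes over libraries in each cell class, as log10 of CPM plus 1 (colour scale), in eWAT (left) and iWAT (right), with white lines between roles. Columns for LAM-like and PVM-like cells are the brightest for most genes, with Ctsb, Ctsd and Psap at the top of the scale and Gaa brighter in APC-like cells.

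To ask which lysosome genes differ in obesity and after acute Rosi, UMIs were summed per library over macrophage-like cells. The log2 fold change from WT-Veh to ob/ob-Veh is called the ob/ob effect, and that from ob/ob-Veh to ob/ob-Rosi the Rosi effect. Both use the same ob/ob-Veh libraries, so opposite signs are no independent evidence of each other. Genes were called at an adjusted p of 0.05 and a 1.1-fold change in edgeR's quasi-likelihood test over all genes.

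In eWAT macrophage-like cells, 6 cathepsins, 10 pump subunits and the hydrolases Gusb and Naglu fell in ob/ob-Veh, and all 18 rose in ob/ob-Rosi, as did Ctsa, Atp6v0b, Psap and Tfeb. The ob/ob effect was called lower for 18 members and higher for 1, Ctsc, of 44, where 27.4% of all genes were called and 14.7% were called lower. The Rosi effect was called higher for 22 and lower for 1, again Ctsc, where 29.2% of all genes were called and 15.3% were called higher. The median log2 change of the members was -0.64 for the ob/ob effect and 0.74 for the Rosi effect, against 0.00 and -0.01 over all 13525 genes. The members' share of the UMIs was 2.95% and 3.63% in WT-Veh, 1.92% and 2.17% in ob/ob-Veh, and 3.36% and 4.02% in ob/ob-Rosi. The ob/ob count fell to 11 without WT-Veh 1 and to 7 and 10 without either ob/ob-Veh library, and the Rosi count fell to 11 and 14 without either ob/ob-Veh library.

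Among the 12 cathepsins, 6 fell and 1 rose in the ob/ob effect, and 7 rose and 1 fell in the Rosi effect. Ctsk moved farthest. Ctsk (GRCm38 chr3:95499256-95509362) had a CPM of 272 and 277 in WT-Veh, 14.8 and 17.4 in ob/ob-Veh, and 342 and 292 in ob/ob-Rosi, so that the ob/ob-Veh libraries lay far below the other 4. Its ob/ob effect was -4.27 (SE 0.24, adjusted p = 4.6e-05) and its Rosi effect 4.51 (SE 0.24, adjusted p = 3.0e-05).

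Ctsl (chr13:64359337-64370890) was at 3160 and 3018, 379 and 474, and 2673 and 3370 CPM, with effects of -3.04 (SE 0.25, adjusted p = 0.00016) and 3.05 (SE 0.25, adjusted p = 0.00014). Ctsd (chr7:142375911-142388038) was at 3597 and 5043, 1295 and 1260, and 3735 and 5010 CPM, with effects of -1.93 (SE 0.26) and 1.99 (SE 0.26). Its annotation overlaps Gm49369 on the same strand, so reads shared by both could not be assigned. For all 3 genes the ob/ob-Veh libraries did not overlap with those of either other label.

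Ctsz, cathepsin X, had effects of -1.37 (SE 0.22) and 1.55 (SE 0.22) from CPM of 1243 and 1250, 569 and 525, and 1326 and 1436. Ctsb, among the most abundant lysosomal proteases, was at 4954 and 6257, 2616 and 3099, and 6181 and 7903 CPM, with effects of -1.15 (SE 0.24) and 1.52 (SE 0.24). Ctss, the protease that trims the invariant chain in antigen-presenting cells, was at 1397 and 1692, 711 and 918, and 1904 and 2339 CPM, with effects of -1.11 (SE 0.23) and 1.61 (SE 0.24). All 3 genes were lowest in the ob/ob-Veh libraries. Without ob/ob-Veh 1 the ob/ob effect of neither Ctsb nor Ctss was called.

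Ctsc went the other way. Its CPM was 375 and 483 in WT-Veh, 997 and 1231 in ob/ob-Veh, and 540 and 410 in ob/ob-Rosi, with effects of 1.20 (SE 0.23, adjusted p = 0.0068) and -1.01 (SE 0.23, adjusted p = 0.011). The ob/ob call was lost without WT-Veh 1 or ob/ob-Veh 2. Ctsc was also the gene that PVM-like cells held at least 2-fold above every other class, and 69.3% and 77.5% of the ob/ob-Veh macrophage-like cells were PVM-like, against 30.8% and 38.6% in WT-Veh and 30.2% and 22.4% in ob/ob-Rosi. Within PVM-like cells Ctsc was at 856 and 784, 1410 and 1470, and 1204 and 801 CPM, again highest in both ob/ob-Veh libraries, and was not called (0.70, SE 0.28, adjusted p = 0.17, and -0.39, SE 0.28, adjusted p = 0.41).

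Ctsa, the protective protein of lysosomal galactosidase, was called in the Rosi effect only, at 1.13 (SE 0.24, adjusted p = 0.0088), from 437 and 547, 304 and 382, and 559 and 724 CPM. Its ob/ob effect was -0.70 with an adjusted p of 0.054. Ctse, Ctsf, Ctsh and Ctso were called in neither comparison, with ob/ob effects between -0.55 and 0.34. The Rosi call of Ctsa was lost without ob/ob-Veh 1.

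Most subunits of the pump were called in 1 direction. In the V1 part, which binds and splits ATP, 7 of 8 members fell in the ob/ob effect and the same number rose in the Rosi effect, all but Atp6v1h. Atp6v1c1 was at 122 and 114, 62.7 and 59.0, and 120 and 118 CPM, with effects of -1.13 (SE 0.21, adjusted p = 0.0059) and 1.18 (SE 0.21, adjusted p = 0.0043). Without ob/ob-Veh 2 its ob/ob effect was not called. Atp6v1g1 was at 376 and 377, 185 and 229, and 342 and 405 CPM, and Atp6v1e1 at 302 and 259, 146 and 164, and 263 and 254 CPM. In each of these genes the ob/ob-Veh libraries lay below all others, and the Rosi effects of the 7 called subunits were between 0.75 and 1.18. Atp6v1h was at 74.1 and 72.3, 85.8 and 107, and 86.5 and 64.6 CPM and overlapped between labels.

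In the V0 part, which forms the proton path, 3 of 6 fell in the ob/ob effect and 4 rose in the Rosi effect. Atp6v0d2 (chr4:19876841-19922605) was at 409 and 341 CPM in WT-Veh, 22.5 and 29.6 in ob/ob-Veh, and 346 and 365 in ob/ob-Rosi, with effects of -4.04 (SE 0.26, adjusted p = 9.0e-05) and 3.99 (SE 0.26, adjusted p = 7.9e-05). Its ubiquitous counterpart Atp6v0d1 was at 158 and 154, 111 and 117, and 133 and 164 CPM and was not called, at -0.63 (SE 0.22, adjusted p = 0.055) and 0.60 (SE 0.22, adjusted p = 0.064). Between these isoforms of the same subunit, the called changes were those of d2.

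Atp6v0e (chr17:26663231-26699647) was at 441 and 385, 185 and 225, and 483 and 466 CPM, with effects of -1.20 (SE 0.22) and 1.43 (SE 0.22), and without ob/ob-Veh 1 its ob/ob effect was not called. Atp6v0a1 had effects of -0.91 and 1.00, both called, and Atp6v0b was called in the Rosi effect only (0.84, SE 0.21). Atp6v0c was called in neither. The accessory subunits Atp6ap1 and Atp6ap2 stayed uncalled, with effects between -0.10 and 0.27, so the decline seen in V1 was not called in these helpers of the same pump.

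Of the 7 other hydrolases, Gusb and Naglu were called. Gusb, the beta-glucuronidase, was at 281 and 340, 114 and 161, and 346 and 409 CPM, with effects of -1.36 (SE 0.24, adjusted p = 0.0049) and 1.68 (SE 0.24, adjusted p = 0.0019). Naglu, which removes N-acetylglucosamine from heparan sulfate, was at 44.1 and 68.7, 21.3 and 27.9, and 52.8 and 64.4 CPM, with effects of -1.37 (SE 0.27) and 1.48 (SE 0.27). Both were lowest in ob/ob-Veh in every library, and the ob/ob call of each was lost without ob/ob-Veh 1. Hexa, Glb1, Lgmn, Gaa and Asah1 were not called, with ob/ob effects between -0.66 and -0.08. Glb1 overlaps Tmppe on the same strand in the annotation.

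None of the 4 membrane proteins Lamp1, Lamp2, Laptm5 and Mcoln1 was called in eWAT, and their ob/ob effects ranged from -0.41 to 0.59. Lamp2, a main protein of the lysosomal membrane, was at 352 and 408, 577 and 720, and 531 and 378 CPM, with an ob/ob effect of 0.59 (SE 0.23, adjusted p = 0.084). Mcoln1, the calcium channel of the lysosome, was at 15.6 and 12.1, 21.1 and 22.3, and 12.5 and 13.3 CPM, with effects of 0.46 (SE 0.24) and -0.53 (SE 0.24). Its 2 ob/ob-Veh libraries were the highest, and only scaling by library size alone called its Rosi effect. Of the activators, Psap rose in the Rosi effect (1.03, SE 0.26, adjusted p = 0.017) and Grn, from which progranulin is made, was not called in either.

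Of the transcription factors, Tfeb was at 29.0 and 39.4, 20.1 and 23.0, and 29.4 and 48.3 CPM, lowest in both ob/ob-Veh libraries. Its ob/ob effect of -0.84 (SE 0.29, adjusted p = 0.055) was not called, and its Rosi effect of 1.08 (SE 0.29, adjusted p = 0.021) was, though not without either ob/ob-Veh library, without ob/ob-Rosi 2 or with library size alone. Tfec, at 9.59 and 13.2, 12.1 and 16.5, and 12.3 and 10.1 CPM, had effects of 0.15 and -0.14. Mitf, at 43.8 and 69.7, 61.7 and 60.2, and 73.7 and 50.1 CPM, had effects of -0.07 and 0.23. The libraries of Tfec and Mitf overlapped between labels.

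**Figure D3:**
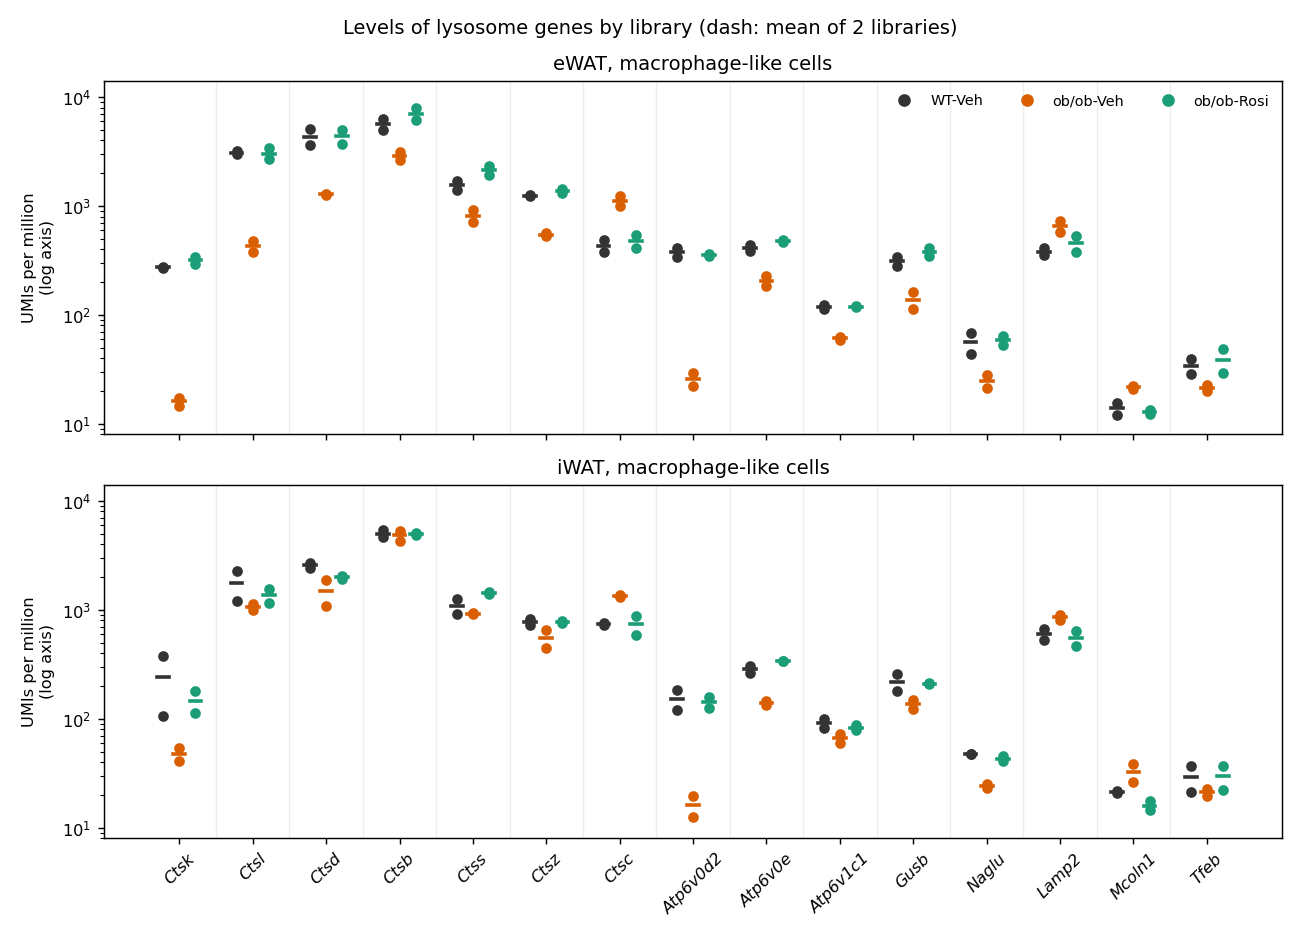
CPM (log axis) of 15 of the 44 genes in macrophage-like cells of eWAT (top) and iWAT (bottom), with 1 point per library coloured by label and dashes for the mean of 2 libraries. In eWAT the ob/ob-Veh points of Ctsk, at 14.8 and 17.4, and of Atp6v0d2, at 22.5 and 29.6, lie far below the others, while those of Ctsc and Lamp2 lie above; in iWAT the ob/ob-Veh points of Ctsb and Ctsl lie among or close to the others.

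Within LAM-like cells of eWAT, most members were not called. Only Ctsl was called, with an ob/ob effect of -1.35 (SE 0.27, adjusted p = 0.012) and a Rosi effect of 1.32 (SE 0.27, adjusted p = 0.020), where 0.502% of all genes were called lower and 0.309% higher. Its CPM was 3923 and 3934 in WT-Veh, 1126 and 2330 in ob/ob-Veh, and 3509 and 4054 in ob/ob-Rosi, so the ob/ob-Veh libraries stayed below the others also in this class, but the ob/ob call was lost without WT-Veh 1 or ob/ob-Veh 1 and the Rosi call without ob/ob-Veh 1. The 11 LAM markers of this class summed to 24049 to 24745 CPM in WT-Veh, 17063 to 22851 in ob/ob-Veh and 24203 to 25959 in ob/ob-Rosi, 3 of 11 were lowest in both ob/ob-Veh libraries, and their part in the Ctsl values was not tested. Ctsk, which moved farthest over all macrophages, stood in LAM-like cells at 308 and 380, 410 and 262, and 463 and 346 CPM. Atp6v0d2 stood at 539 and 489, 613 and 342, and 480 and 451 CPM. Ctsd stood at 4119 and 6145, 6310 and 4085, and 4421 and 5797 CPM. In these last 3 genes the labels overlapped, and the median ob/ob effect of the members was 0.00. The ob/ob-Veh values rest on 29 and 55 cells, and the median SE of the members was 0.27, so small changes could not be seen.

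Within PVM-like cells of eWAT, 6 of 43 members tested fell in the ob/ob effect and 8 rose in the Rosi effect, where 1.35% of all genes were called lower and 2.14% higher. The 6 were Ctsk, Atp6v0d2, Ctsd, Ctsl, Naglu and Ctsz, and the 8 were these with Ctss and Atp6v0e. The PVM-like cells of ob/ob-Veh lay in another cluster than the rest. It took 1868 and 1832 of the ob/ob-Veh cells and only 3 and 11 WT-Veh and 20 and 2 ob/ob-Rosi cells. WT-Veh and ob/ob-Rosi shared the other large clusters, which divided in part by replicate number. One held 2521 and 421 cells of WT-Veh and 1401 and 130 of ob/ob-Rosi, and the other 27 and 613 and 98 and 895. With a replicate block the counts were 9 and 12. Leaving out any of the WT-Veh or ob/ob-Veh libraries left 2 calls in either comparison, and so did leaving out ob/ob-Rosi 2 in the Rosi effect, whereas 11 were called in the latter without ob/ob-Rosi 1.

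Free RNA may bear on these values, because RNA from broken cells can enter droplets. Free RNA was not measured directly, and T/NK-like cells, which should hold little cathepsin K, served as a stand-in. Own expression and cells captured together were not told apart from it there. Gpnmb, a defining LAM gene, had 306 and 265 CPM in T/NK-like cells of WT-Veh, 7.7 and 12.6 in ob/ob-Veh, and 274 and 405 in ob/ob-Rosi, so that RNA of a LAM gene in other cells moved with the labels. All 11 markers of the LAM list were lowest in both ob/ob-Veh libraries in T/NK-like cells, none was at 0 there, and their summed level was 4873 to 6216 CPM in WT-Veh, 1128 to 1408 in ob/ob-Veh and 6485 to 7397 in ob/ob-Rosi. In PVM-like cells 10 of the 11 were lowest in ob/ob-Veh, with sums of 6116 to 6888, 2951 to 3028 and 5967 to 7742 CPM. Ctsk in PVM-like cells, at 75.5 and 68.5, 7.7 and 8.4, and 76.9 and 92.7 CPM, lay at or below its level in T/NK-like cells (122 and 89.7, 9.3 and 18.2, 81.5 and 151) in 6 of 6 libraries. Atp6v0d2 and Atp6v0e lay at or below it in 3 of 6 libraries each. Whether free RNA makes up the same part of the UMIs in both classes was not tested, and no difference of Ctsk between labels is read within PVM-like cells.

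For 37 of the 44 members the PVM-like level stood above that of T/NK-like cells in every library, with Ctse at or below it in 6 and Atp6v1f, Ctso and Laptm5 in 1 of 6 besides the 3 above. The difference between both classes was taken in each library, a description chosen after the values were seen. For Ctsd this difference had a mean of 1688 CPM in WT-Veh, 547 in ob/ob-Veh and 951 in ob/ob-Rosi. For Ctsz it was 551, 214 and 343 CPM, for Ctss 814, 482 and 829 CPM, and for Naglu 44.1, 15.3 and 26.7 CPM. In these 4 genes, and in Ctsa, Ctsb, Glb1, Lamp1 and Tfeb, both ob/ob-Veh libraries lay below all others after the subtraction, 9 of 43 members tested against 12.4% of all genes. For 6 members, Ctsc, Lgmn, Lamp2, Atp6v0a1, Atp6v1h and Atp6v0d2, they lay above all others, against 10.4% of all genes, and for Atp6v0d2 the mean difference was negative in WT-Veh and ob/ob-Rosi. For Ctsl it was 486, 386 and 311 CPM and the labels overlapped.

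**Figure D4:**
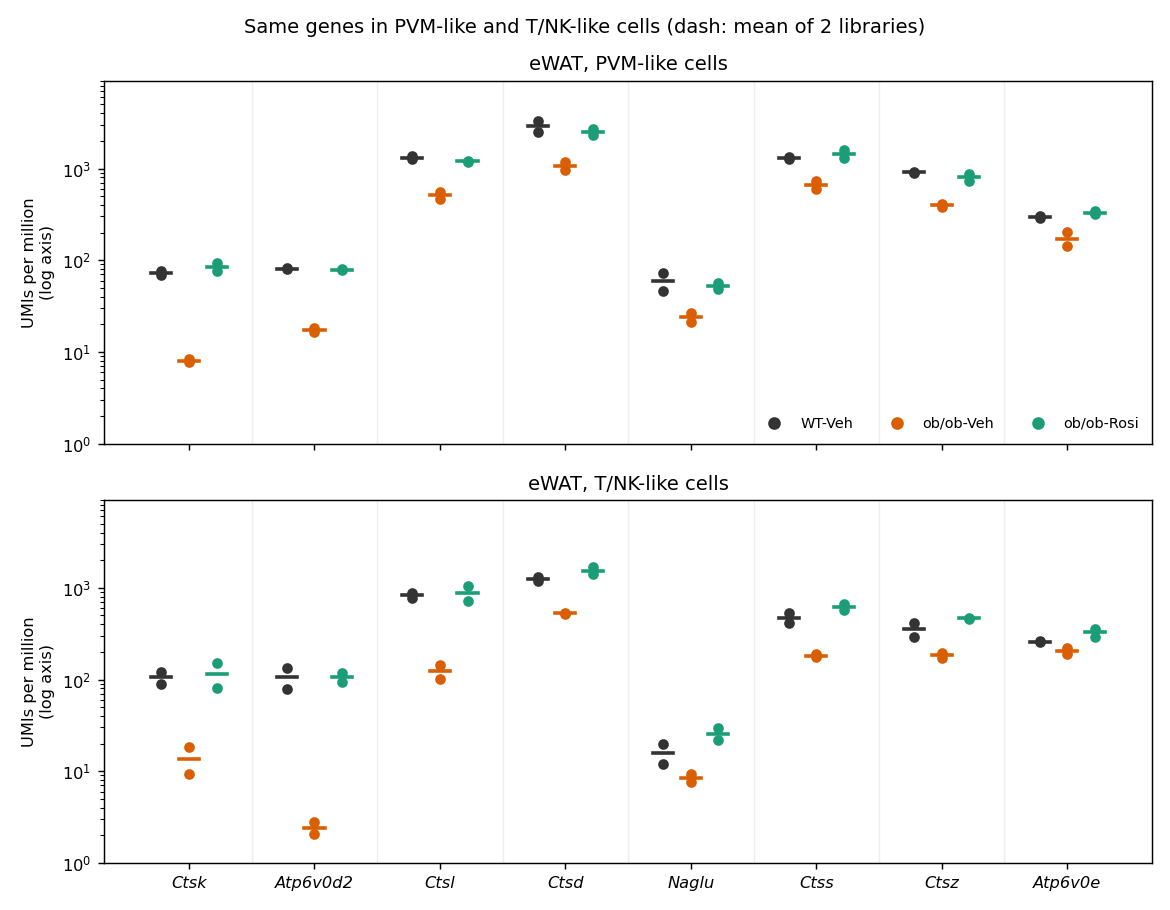
CPM (log axis) of 8 genes in eWAT PVM-like cells (top) and T/NK-like cells (bottom), with 1 point per library coloured by label and dashes for the mean of 2 libraries. Ctsk is no higher in PVM-like than in T/NK-like cells in any library, whereas Ctsd, at 1187 and 966 in PVM-like cells of ob/ob-Veh, stays above T/NK-like cells at 536 and 523.

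NPVM-like cells showed a shorter list. There, 3 of 42 members fell in the ob/ob effect (0.875% of all genes called lower), namely Ctsk, Atp6v0d2 and Ctsl, and 5 rose in the Rosi effect (2.53% called higher), with Ctsa and Ctsb in addition. Ctsb was at 2000 and 2017 CPM in WT-Veh, 736 and 1203 in ob/ob-Veh, and 3068 and 2263 in ob/ob-Rosi. Of the 11 LAM markers, 8 were lowest in both ob/ob-Veh libraries in NPVM-like cells. Their sums were 10937 to 11193 CPM in WT-Veh, 3401 to 6461 in ob/ob-Veh and 9601 to 13903 in ob/ob-Rosi. Ctsk in these cells lay at or below the T/NK-like level in 6 of 6 libraries and Ctsl and Atp6v0d2 in 4 of 6, and the part of free RNA in these calls was not tested. Both ob/ob-Veh libraries lay above T/NK-like cells for Ctsl (111 and 189 against 101 and 145 CPM) and Atp6v0d2 (4.9 and 17.2 against 2.1 and 2.8). The ob/ob count was 1 without WT-Veh 1, 2 without WT-Veh 2 or ob/ob-Veh 1, and 6 and 5 without ob/ob-Rosi 1 and 2, and the Rosi count was 8 without ob/ob-Rosi 1 and 2 without ob/ob-Veh 1.

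In 4 further classes of eWAT, each member called was lower in the ob/ob effect or higher in the Rosi effect. In T/NK-like cells 7 members fell in the ob/ob effect and 10 rose in the Rosi effect (1.82% of all genes called lower and 1.85% higher). In EC-like cells 10 fell and 12 rose (2.29% and 2.15%), in APC-like cells 10 fell and 9 rose (4.49% and 4.79%), and in DC-like cells 5 fell and 5 rose (0.751% and 0.697%). Ctsk, Ctsd, Ctsb and Atp6v0d2 were called in both comparisons in all 4 of these classes. Atp6v0d2 was near the floor in ob/ob-Veh, at 2.1 and 2.8 CPM in T/NK-like and 2.9 and 4.4 in EC-like cells. It was at 0.53 and 0.81 in APC-like and 0.41 and 1.2 in DC-like cells. Its calls therefore rest on its levels in the other labels and are no separate support. Gpnmb, which marks LAMs, moved likewise in EC-like cells, at 269 and 283, 11.4 and 6.0, and 324 and 330 CPM, and in APC-like cells, at 195 and 223, 62.2 and 101, and 190 and 217 CPM. Of the 11 LAM markers, 11 were lowest in both ob/ob-Veh libraries in APC-like cells, with sums of 7112 to 7668, 1903 to 2447 and 5476 to 5737 CPM, 10 in DC-like cells and 7 in EC-like cells, which express Fabp4 and Cd36 of that list themselves. None was at 0 in ob/ob-Veh. The sums in APC-like cells lay above those in T/NK-like cells in WT-Veh and ob/ob-Veh and below them in ob/ob-Rosi. Own expression of these markers in APC-like cells was not told apart from free RNA. The part of free RNA in these calls was not tested. The counts depended on single libraries. In T/NK-like cells the ob/ob count was 3 or 4 without any 1 of the WT-Veh and ob/ob-Veh libraries and 13 without either ob/ob-Rosi library, and the Rosi count was 3 without either ob/ob-Veh library and 19 without ob/ob-Rosi 1. In EC-like cells the ob/ob count was 5 to 7 without any 1 of the WT-Veh and ob/ob-Veh libraries and 17 and 16 without ob/ob-Rosi 1 and 2, and the Rosi count was 5 and 6 without ob/ob-Veh 1 and 2. In APC-like cells the ob/ob count was 3 and 5 without WT-Veh 1 and 2 and likewise without ob/ob-Veh 1 and 2, and the Rosi count was 16 without ob/ob-Rosi 1 and 4 or 5 without ob/ob-Rosi 2 or either ob/ob-Veh library. In DC-like cells the Rosi count was 10 without ob/ob-Rosi 1 and 3 without ob/ob-Veh 1.

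In APC-like cells of eWAT, as in LAM-like cells, Ctsk stood above the level of T/NK-like cells in every library. Its CPM in APC-like cells was 357 and 417 in WT-Veh, 117 and 142 in ob/ob-Veh, and 371 and 577 in ob/ob-Rosi, with effects of -1.65 (SE 0.30, adjusted p = 0.0079) and 1.93 (SE 0.30, adjusted p = 0.0036). Atp6v0d2, by contrast, was at 54.3 and 30.8, 0.53 and 0.81, and 31.7 and 30.0 CPM in APC-like cells, below its level in T/NK-like cells in each library. Both genes were lowest in ob/ob-Veh, from very different levels.

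In the interaction of class and label in eWAT, the ob/ob effect of 19 of 43 members and the Rosi effect of 20 differed between macrophage-like and APC-like cells, where 17.3% and 17.6% of all genes did. For the ob/ob effect, 11 were more negative in macrophage-like cells, led by Ctsk, at -2.72 (SE 0.25, adjusted p = 0.00034), and Ctsl, at -2.41 (SE 0.20, adjusted p = 0.00022), and including 6 V1 subunits with Atp6v0e, Gusb and Tfeb. The other 8 lay higher in macrophage-like cells, among them Ctsc, Lgmn, Ctsh and Atp6v0d2. Atp6v0d2 was near the floor in APC-like cells of ob/ob-Veh, at 0.53 and 0.81 CPM, and the part of free RNA in these differences was not tested. In the Rosi effect 14 lay higher, led by Ctsk, at 2.71 (SE 0.26), and 6 lay lower. The 6 V1 subunits were thus among the members whose ob/ob effect was more negative in macrophage-like than in APC-like cells. In iWAT this test passed 2 members in the ob/ob effect (6.51% of all genes), Ctsk at -2.22 (SE 0.47) and Atp6v0e at -0.85 (SE 0.22), and 1 in the Rosi effect (6.63%), Gusb at 0.75 (SE 0.19).

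In iWAT macrophage-like cells fewer members were called. The ob/ob effect was called lower for 4 of 44, Ctsk, Atp6v0d2, Atp6v0e and Naglu, where 7.4% of all genes were called lower, and the Rosi effect was called higher for 8, these with Gusb, Atp6v1e1, Atp6v1f and Atp6v1g1, where 11.4% were called higher. The medians over the members were -0.27 and 0.08, against 0.01 and -0.05 over all 13108 genes. The members' share of UMIs was 2.91% and 2.72%, 3.06% and 2.53%, and 2.63% and 2.53% and overlapped between labels. Without either ob/ob-Veh library 0 members were called in the Rosi effect and 1 in the ob/ob effect, the Rosi count was 3 and 1 without ob/ob-Rosi 1 and 2, and the ob/ob count was 8 without WT-Veh 1. With a replicate block the ob/ob count was 8 and the Rosi count 10.

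Atp6v0d2 was again the pump subunit with the largest change. It was at 182 and 119 CPM in WT-Veh, 19.6 and 12.6 in ob/ob-Veh, and 159 and 126 in ob/ob-Rosi, with effects of -3.38 (SE 0.34, adjusted p = 0.0029) and 3.34 (SE 0.34, adjusted p = 0.0046). Ctsk was at 380 and 105, 41.3 and 54.4, and 179 and 112 CPM, with effects of -2.51 (SE 0.54, adjusted p = 0.026) and 1.82 (SE 0.53, adjusted p = 0.045), and its WT-Veh libraries were far apart. In proliferating macrophages Ctsk was at 1929 CPM in WT-Veh 1, from 44 cells, and at 42.7 in WT-Veh 2, from 32 cells. The part of these cells in the difference was not tested. Both genes were lowest in the ob/ob-Veh libraries, as in eWAT. In T/NK-like cells of iWAT Ctsk was at 19.8 and 39.1, 75.7 and 119, and 87.2 and 45.2 CPM. In both ob/ob-Veh libraries this was above its level in macrophage-like cells, but these T/NK-like levels rest on few UMIs. The part of free RNA was not tested.

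Atp6v0e was at 265 and 302, 132 and 145, and 340 and 341 CPM, with effects of -1.23 (SE 0.24) and 1.52 (SE 0.24). Naglu was at 47.4 and 47.0, 24.9 and 23.1, and 40.5 and 45.4 CPM, with effects of -1.16 (SE 0.23) and 1.05 (SE 0.22). The V1 subunits Atp6v1e1, Atp6v1f and Atp6v1g1 had Rosi effects of 0.90, 1.31 and 1.21, and Gusb one of 0.84. These 4 Rosi calls were close to the threshold, with adjusted p between 0.027 and 0.046.

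The abundant proteases that fell in eWAT were not called in iWAT. Ctsb was at 5336 and 4651, 5317 and 4295, and 5098 and 4817 CPM. Ctsl was at 2286 and 1199, 1118 and 994, and 1564 and 1146 CPM, and Ctsd at 2700 and 2417, 1893 and 1071, and 1919 and 2041 CPM. In Ctsb the labels overlapped, and in Ctsl and Ctsd both ob/ob-Veh libraries were lowest but by less than the spread of the model allowed to call. Ctsc was at 758 and 718, 1314 and 1360, and 881 and 590 CPM, highest in both ob/ob-Veh libraries and not called (0.67, SE 0.29, adjusted p = 0.15). Mcoln1 (0.43 and -0.81), Tfeb (-0.67 and 0.71), Tfec (-0.32 and -0.03) and Mitf (0.35 and -0.43) were not called in either effect.

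**Figure D5:**
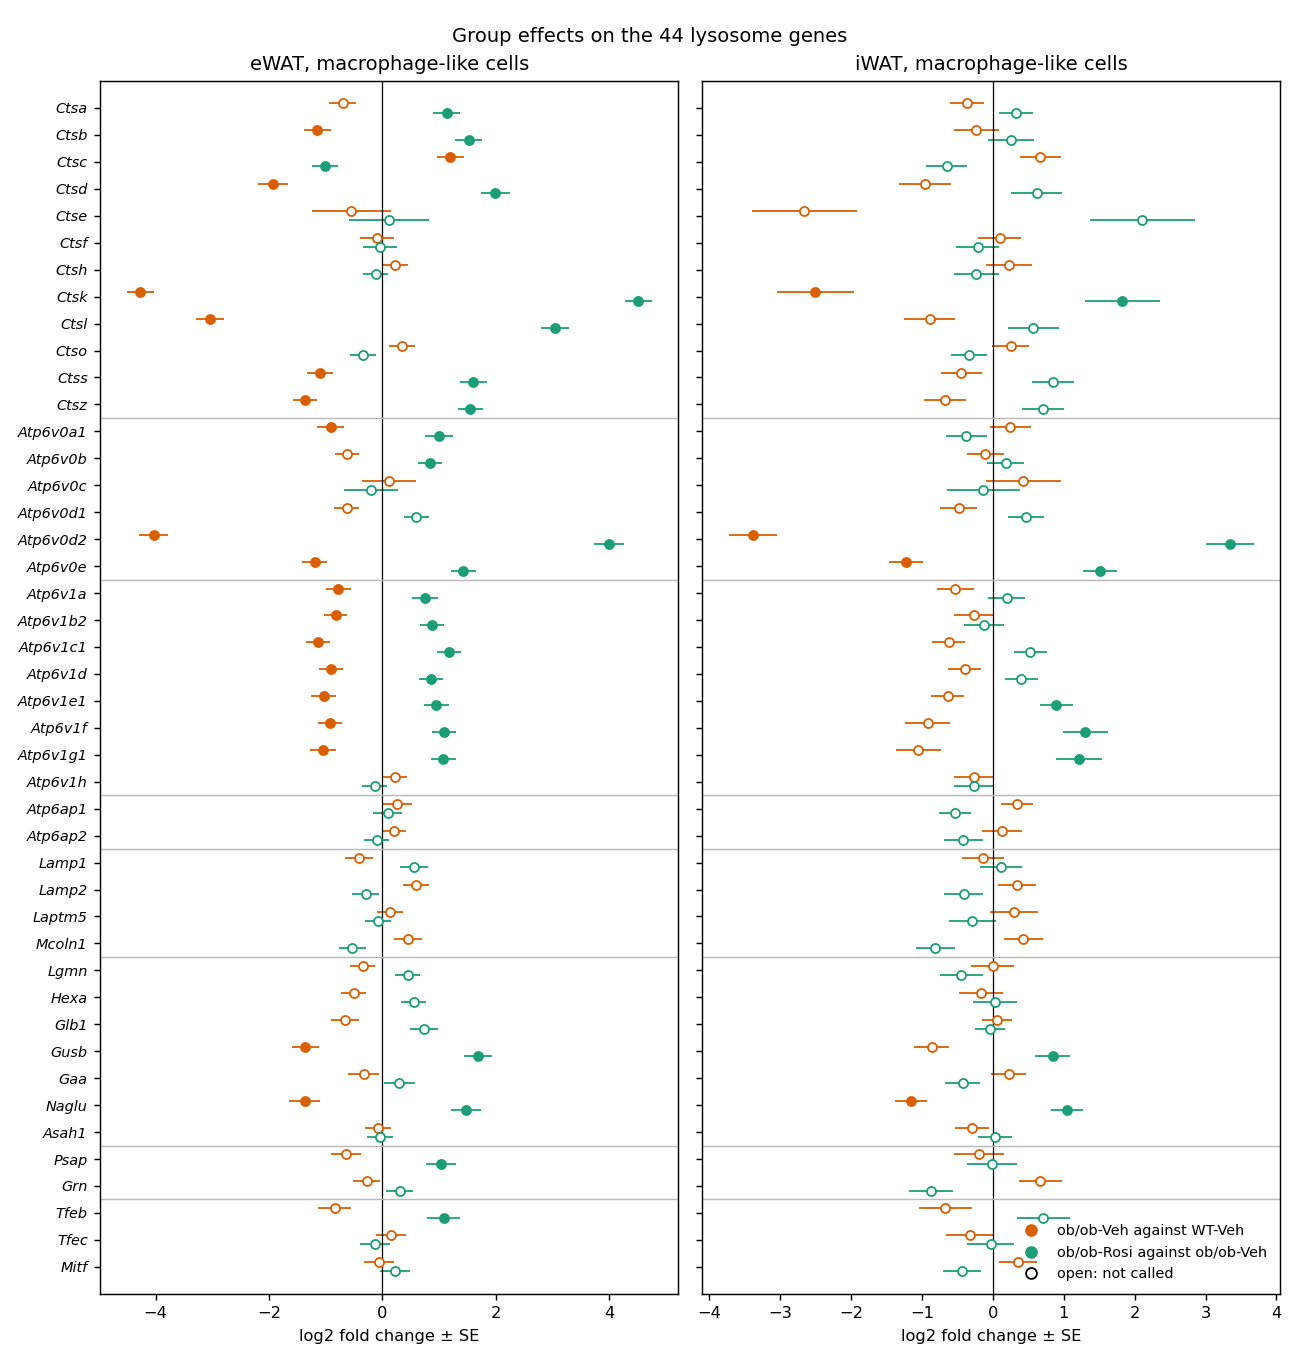
Log2 fold change with its SE of each of the 44 genes in macrophage-like cells of eWAT (left) and iWAT (right), for ob/ob-Veh against WT-Veh (orange) and ob/ob-Rosi against ob/ob-Veh (green); filled points were called and lines part the roles. In eWAT 19 and 23 points are filled, with Ctsk at -4.27 and 4.51, and in iWAT 4 and 8, with Atp6v0d2 at -3.38 and 3.34.

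In the test of the difference between depots, which took the 12 libraries as independent, 1 of 44 members differed in the ob/ob effect, where 1.14% of all genes did. This was Ctsl, whose ob/ob effect was 2.16 higher in iWAT than in eWAT (SE 0.44, adjusted p = 0.047). For the Rosi effect 0 members passed edgeR's test, where 0.0212% of all genes passed. At an unadjusted p under 0.05 there were 15 members, against 11.9% of all genes, and the differences of Ctsl (-2.51, SE 0.44, adjusted p = 0.064) and Ctsk (-2.71, SE 0.62, adjusted p = 0.10) came nearest. A single member of 44 lies near the background share. The LAM-like share of WT-Veh, given above, was not the same in both depots, and its part in the difference was not tested.

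In PVM-like cells of iWAT, 1 of 44 members fell in the ob/ob effect (1.9% of all genes called lower) and 3 rose in the Rosi effect (6.14% higher). Naglu was at 40.6 and 48.2, 24.5 and 23.1, and 37.6 and 44.1 CPM and was called in both, at -1.08 (SE 0.25) and 0.96 (SE 0.25). Atp6v0e and Atp6v0d2 were called in the Rosi effect, at 1.17 (SE 0.27) and 1.86 (SE 0.39), and Atp6v0d2 lay at or below T/NK-like cells in 2 of 6 libraries. The T/NK-like level of Atp6v0d2 in ob/ob-Veh was 0 and 19.9 CPM, from few UMIs. Of the 11 LAM markers, 5 were lowest in both ob/ob-Veh libraries in these PVM-like cells. Their sums were 3834 to 5372 CPM in WT-Veh, 1947 to 2326 in ob/ob-Veh and 3426 to 5282 in ob/ob-Rosi. In T/NK-like cells of iWAT only 2 of the 11 were lowest in both ob/ob-Veh libraries. The sums there were 4503 to 6639, 1082 to 2516 and 2494 to 6071 CPM, so ob/ob-Veh and ob/ob-Rosi overlapped. The part of free RNA was not tested. Grn was at 1712 and 1650, 3361 and 2384, and 1445 and 1445 CPM, highest in both ob/ob-Veh libraries and not called. Different clusters held these cells, with ob/ob-Veh 1 and 2 in clusters of 1743 and 1038 and of 961 and 1013 of their cells, while those of WT-Veh and ob/ob-Rosi divided by replicate number (882 of WT-Veh 1 and 2405 of ob/ob-Rosi 1 in one, 2277 and 581 of WT-Veh 2 and 1942 and 3056 of ob/ob-Rosi 2 in the other two). Col1a1, a fibroblast gene, stood at 670 and 261 CPM in ob/ob-Veh against 38.9 and 23.0 in WT-Veh. Without any 1 of the ob/ob-Veh and ob/ob-Rosi libraries 0 Rosi calls remained. With a single WT-Veh library left out, 5 members were called in the Rosi effect, and with a replicate block 6 and, in the ob/ob effect, 2. In the ob/ob effect 5 were called without WT-Veh 1 and 0 without WT-Veh 2 or either ob/ob-Veh library.

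LAM-like cells of iWAT could not be tested in ob/ob-Veh, with 18 and 5 cells. Between the other labels, Ctsl was at 5278 and 2724 CPM in WT-Veh and 2982 and 2643 in ob/ob-Rosi, and Atp6v0d2 at 467 and 411 against 410 and 396. In EC-like cells of iWAT, Atp6v0d2 alone was called in both effects, from 13.5 and 16.4, 3.2 and 1.7, and 18.6 and 27.7 CPM, where 1.05% of all genes were called lower and 0.833% higher. Its ob/ob-Veh levels were near the floor, from at most a few UMIs per library. Atp6v0d2 lay at or below T/NK-like cells in 3 of 6 libraries. Of the 11 LAM markers, 7 were lowest and 1 was highest in both ob/ob-Veh libraries in these EC-like cells, and the part of free RNA was not tested. In APC-like and T/NK-like cells of iWAT, edgeR called 0 members in either effect, where 0.353% and 0.641% of all genes were called in APC-like and 0% in T/NK-like cells. At an unadjusted p under 0.05 there were 2 and 8 members in APC-like cells, against 16.8% and 21.7% of all genes, and 3 and 3 in T/NK-like cells, against 13.2% and 15.7%. Without WT-Veh 1 and 2 the Rosi count was 4 and 5 in APC-like, 3 and 2 in T/NK-like and 7 and 3 in EC-like cells, and the ob/ob count was 2, 2 and 4 in these classes without WT-Veh 1. In EC-like cells the Rosi count was also 3 without ob/ob-Rosi 1 and 0 without either ob/ob-Veh library, and the ob/ob count 0 without WT-Veh 2 or either ob/ob-Veh library.

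In the comparison of ob/ob-Rosi with WT-Veh, edgeR called 0 members in each class tested in both depots, where 0.99% of all genes were called in iWAT EC-like, 0.0907% in eWAT EC-like, 0.0418% in eWAT LAM-like, 0.0125% in eWAT NPVM-like and 0% in the other classes. In macrophage-like cells 0 members had an unadjusted p under 0.05 in either depot, against 2.52% of all genes in eWAT and 4.46% in iWAT, and DESeq2 called 0, with 1 member under 0.05 in eWAT. In the other classes 2 members were under 0.05 in eWAT LAM-like (2.42% of all genes), 1 in iWAT APC-like (2.92%), 2 in iWAT EC-like (8.63%) and 0 in all other cells tested, and DESeq2, run for macrophage-like and PVM-like cells, called 0 in PVM-like cells as well. In macrophage-like cells the members' log2 ratios ran from -0.43 to 0.50 in eWAT and from -0.68 to 0.40 in iWAT. With a median SE of 0.23 and 0.29 there, differences of such a size could not be told from the spread between libraries. This holds for the fit without a replicate block. Ranges were wider in some other classes, such as -0.50 to 1.30 in eWAT APC-like and -1.24 to 1.08 in iWAT T/NK-like cells.

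Other genes of the pathway, in lists named by role, moved in part alongside. In eWAT macrophage-like cells 65 such genes were tested, of which 23 fell and 6 rose in the ob/ob effect and 23 rose and 4 fell in the Rosi effect, where 14.7% of all genes were called lower in the first and 15.3% higher in the second. Acp5, the tartrate-resistant acid phosphatase, was at 178 and 196, 8.6 and 15.8, and 143 and 237 CPM, with effects of -4.12 (SE 0.36) and 4.19 (SE 0.36). Igf2r, the receptor that carries hydrolases to the lysosome, was at 88.9 and 94.2, 12.1 and 16.3, and 113 and 75.2 CPM, with effects of -2.87 and 2.94 (SE 0.26 in both). Both were far lower in ob/ob-Veh, while Ids, the iduronate sulfatase, was higher there, at 110 and 105 CPM against 31.9 and 36.6 in WT-Veh and 40.9 and 26.2 in ob/ob-Rosi, with effects of 1.47 and -1.47 (SE 0.25). Atp6v0e2, a further pump subunit, had effects of 2.49 and -2.29 at no more than 1.4 CPM.

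By role, 8 of the 29 further hydrolases fell and 3 rose in the ob/ob effect in eWAT, as did 7 and 1 of 17 membrane and transport genes and 6 and 1 of 12 signalling genes. Lysosomal signalling genes build the Ragulator complex and its partners, through which mTORC1 is held at the lysosome. Of these, Rragd (-2.12 and 1.75), Lamtor1 (-1.37 and 1.52) and Lamtor5 (-1.25 and 1.50) fell and then rose, and Flcn (0.78 and -0.85), whose product acts on the Rag GTPases, did the reverse. In the Rosi effect 7 signalling genes rose and 1 fell.

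In iWAT macrophage-like cells Acp5 was also the largest, at 173 and 122, 10.3 and 8.3, and 72.8 and 95.1 CPM, with effects of -4.15 (SE 0.32) and 3.38 (SE 0.31). Cd63, a tetraspanin of late endosomes, was at 1117 and 1026, 276 and 415, and 1224 and 1211 CPM, with a Rosi effect of 2.04 (SE 0.29), and Igf2r had an ob/ob effect of -2.06 (SE 0.49). Of the 12 signalling genes, 4 fell in the ob/ob effect, and 5 rose and 1 fell in the Rosi effect, where 7.4% of all genes were called lower and 11.4% higher. Of the 29 further hydrolases 4 fell in the ob/ob effect, and 5 rose and 5 fell in the Rosi effect, with medians of 0.01 and -0.24, and of 17 membrane and transport genes 4 fell in the first and 5 rose and 1 fell in the second. Atp6v0e2 had a Rosi effect of -2.24 (SE 0.57), and Arsb, the arylsulfatase B, fell by 1.29 in the Rosi effect (SE 0.27).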

How the data were processed

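Single-cell libraries of the SVF (10x 3' v3.1 chemistry) were available for 12 samples, 2 per label and depot, named biological replicates in the labels. Whether eWAT and iWAT libraries came from the same mice is not given in the sources used here, and the test between depots has no term for it. The authors made FASTQ files with bcl2fastq 2.19.1.403 and used Cell Ranger 3.0.2 and the mm10 build to count UMIs, and the deposited values are raw UMI counts per gene and barcode, 1 matrix per library with no pooling. No barcode of the iWAT matrices was above 21957 UMIs or 24.98% mitochondrial UMIs, whereas those of eWAT reached 149572 and 98.3%. UMI totals per library are over all deposited barcodes. Here cells with 700 to 22000 UMIs, 200 to 6000 genes and under 25% mitochondrial UMIs were kept. In each depot, 2000 variable genes without lysosomal genes gave 25 components and, with 20 neighbours, Leiden clusters at resolution 1 (scanpy 1.11.5, leidenalg 0.10.2, Python 3.11.15). Macrophage-like clusters were clustered again with 15 components at resolution 0.6. A class name needed at least 3 markers, each detected in 20% of a cluster's cells, and clusters whose leading genes went against a name stayed unnamed, so shares rest on rebuilt names. Doublets were kept in the main counts and removed by scanpy's Scrublet scores as an alternative.

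Counts were summed per library and class, with at least 20 cells, since cells are not replicates. Sums were tested with edgeR 4.0.16 (R 4.3.3; TMM scaling, quasi-likelihood fit over all genes passing its filter, all 3 labels of a depot sharing 1 estimate of spread, no replicate block) and a gene was called where its p, adjusted by Benjamini-Hochberg, was at most 0.05 and its change at least 1.1-fold. Interactions with class had a term per library. DESeq2 1.42.0 was an alternative, as were other scalings and filters, thinning each cell to 700 UMIs, other clustering resolutions and leaving out each library. Levels (CPM) were computed from the sums and are not per transcript length. On data simulated from the eWAT macrophage-like sums for the ob/ob effect, 100 of 13525 genes were changed. Of these, 22% were recovered at 2-fold and 72% at 4-fold, with 5 false calls in either setting. In the measured data 3703 genes were called, so these rates need not hold there. With 2 libraries per label the tests are coarse, and UMI totals of 20132553 to 92475986 per library limit low genes.

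The members and lists were chosen with earlier results of these data known. Members were named where they were called in macrophage-like cells, with full values for at most the 12 with the largest change per comparison, together with Tfeb, Tfec, Mitf and Mcoln1 and those at least 2-fold higher in 1 class, and of other lysosomal genes the 2 largest changes per direction. Values of further members were chosen after they were seen. Promoter windows came from RefSeq tables on GRCm38.p6, and gene positions and overlaps from a GENCODE annotation on GRCm38.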

Additional observations from a re-analysis of the deposited data

Results flagged for a closer look

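The ob/ob effect of Ctsl in macrophage-like cells differed between depots in the interaction test over all 12 libraries. It was 2.16 higher in iWAT than in eWAT on the log2 scale (SE 0.44, adjusted p = 0.047, edgeR). In eWAT alone the effect was -3.04, and in iWAT Ctsl was not called. Of all genes, 1.14% differed.

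In eWAT the effects in macrophage-like cells differed from those in APC-like cells for 20 of 43 members in the Rosi effect and 19 in the ob/ob effect, where 17.6% and 17.3% of all genes differed. The part of free RNA in these differences was not tested. In iWAT this held for 1 member in the Rosi effect, Gusb (0.75 higher in macrophage-like cells, SE 0.19, adjusted p = 0.047), and for 2 in the ob/ob effect, Ctsk (-2.22, SE 0.47, adjusted p = 0.022) and Atp6v0e (-0.85, SE 0.22, adjusted p = 0.05), where 6.63% and 6.51% of all genes differed.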

How the results depend on the processing

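The main counts of members called in the ob/ob and Rosi effects were 19 and 23 in eWAT macrophage-like, 6 and 8 in eWAT PVM-like, 4 and 8 in iWAT macrophage-like, and 1 and 3 in iWAT PVM-like cells. Leaving out single libraries gave 7 to 24 and 11 to 26, 2 to 9 and 2 to 11, 1 to 8 and 0 to 10, and 0 to 5 and 0 to 5 in the same order. In eWAT PVM-like cells the Rosi count was 3 with library size alone and 5 with doublets removed. In iWAT macrophage-like cells the ob/ob count was 9 with DESeq2 and 9 with no filter, and the Rosi count was 4 with cells thinned. In iWAT PVM-like cells the ob/ob count was 3 with DESeq2, 3 with no filter, 0 with library size alone and 2 at clustering resolution 2, and the Rosi count was 6 with DESeq2 and 5 with no filter. The cause of these moves was not tested. No called effect of a named member changed its direction. For small uncalled effects, such as those of Mitf and Tfec, direction was not read.

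When same-numbered libraries formed a replicate block, the counts in the ob/ob and Rosi effects were 24 and 24 in eWAT macrophage-like, 9 and 12 in eWAT PVM-like, 8 and 10 in iWAT macrophage-like, and 2 and 6 in iWAT PVM-like cells. The labels do not say what a shared number stands for, and with 2 libraries per label a pairing was not established. The correlations of their deviations from the group means were 0.136 to 0.320 in eWAT and -0.024 to 0.602 in iWAT, where the highest was between WT-Veh and ob/ob-Rosi, whose PVM-like cells also clustered by number.

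For the 52 effects of single named members, 558 of 572 values under the other alternatives stayed on the same side of the threshold, 9 lost and 5 gained a call. Of 312 values with a library left out 262 stayed on the same side, 46 lost and 4 gained a call. In iWAT each named Rosi call was lost without either ob/ob-Veh library. Library size alone shifted the median of all genes by 0.19 and -0.23 in eWAT macrophage-like and 0.20 and -0.27 in iWAT macrophage-like cells, and turned the split of all ob/ob calls in eWAT from 1718 higher and 1985 lower to 2179 higher and 1362 lower. With 2 libraries per label and few LAM-like cells in ob/ob-Veh, small changes were below what these tests can see.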
